A study of Mus musculus with 2 samples.

Results

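The Ets family transcription factors studied here were the 10 genes Spi1, Spib, Ets1, Ets2, Fli1, Erg, Elf1, Etv6, Gabpa and Elk3, and their accessible chromatin was described in splenic B cells of the mouse. They were listed by name, and the rule that assigned DHS to them used no measured value. A window was laid over each gene body and 50 kb on either side, by the GENCODE M1 annotation, in which Spi1 is listed as Sfpi1. The 10 windows held 160 of the 47542 DNase I hypersensitive sites (DHS) of the peak list, and 2 of these 160 lay in the windows of both Fli1 and Ets1. A DHS is a stretch of DNA that the nuclease DNase I cuts more readily than the packed chromatin around it.

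The cells came from Trp53+/+ mice of the strain C57/Bl6, 8 weeks old, in the mock arm of the study, so that p53 was intact and no radiation had been given. B cells were selected from spleen on magnetic beads against B220, a surface marker of the B lineage. The series held 1 DNaseI library and 1 input library, with no replicates, and only the peak list of the DNaseI library was analysed here. Each comparison below is therefore a description of 1 library without a test, and the depth of sequencing is unknown. Each DHS carries a score deposited by the authors. Its scale is not given in the sources used here, so scores were compared only within this list, where they ran from 5.05 to 619.44 with a median of 32.65.

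Ets proteins share a DNA-binding domain, the Ets domain, which contacts a GGAA core, and the flanking bases and protein partners distinguish the members. PU.1, the product of Spi1, is required for the myeloid and B lineages, and its close relative Spi-B acts in B cells and plasmacytoid dendritic cells. Ets1 and Elf1 are prominent in lymphocytes, Fli1 and Erg act in blood stem cells, megakaryocytes and endothelium, and Etv6 is mostly a repressor that is needed for blood formation in the bone marrow. Ets2 and Elk3 are targets of Ras and MAP kinase signalling, and Gabpa pairs with Gabpb proteins at promoters of housekeeping and mitochondrial genes.

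The 120 bases before the start sites of 5 members are shown because these starts lay under the strongest promoter DHS of each gene, and they let the core bound by the family be looked for before its own genes. The stretches of 4 others overlap exons of other annotated transcripts and are not shown. They were read from the mm9 assembly (NCBI build 37), 5′ to 3′ along the gene, and the capitals mark each GGAA, or TTCC where the core lies on the other strand.
Spi1, chr2:90936133-90936252, plus strand: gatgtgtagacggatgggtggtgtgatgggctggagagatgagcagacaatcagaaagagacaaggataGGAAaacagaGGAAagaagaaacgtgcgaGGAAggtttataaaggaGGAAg
Spib, chr7:51787442-51787561, minus strand: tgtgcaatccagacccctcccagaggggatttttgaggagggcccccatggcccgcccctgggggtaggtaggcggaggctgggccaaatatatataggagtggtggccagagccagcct
Ets1, chr9:32503507-32503626, plus strand: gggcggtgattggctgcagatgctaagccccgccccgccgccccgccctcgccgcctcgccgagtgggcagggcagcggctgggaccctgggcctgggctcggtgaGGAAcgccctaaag
Ets2, chr16:95923562-95923681, plus strand: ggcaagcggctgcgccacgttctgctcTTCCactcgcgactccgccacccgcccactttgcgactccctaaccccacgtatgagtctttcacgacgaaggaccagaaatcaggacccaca
Etv6, chr6:133985598-133985717, plus strand: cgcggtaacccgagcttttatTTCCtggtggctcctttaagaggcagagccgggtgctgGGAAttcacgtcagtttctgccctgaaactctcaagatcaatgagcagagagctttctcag

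In these 120 bases the Spi1 start had 4 GGAA cores, the Etv6 start 2, the Ets1 and Ets2 starts 1 each, and the Spib start none. Over 22347 protein-coding genes, the 120 bases before the 5′ end of the gene held at least 1 core in 72.4%. The mean was 1.37 cores. That background was taken whether or not a DHS lay there, whereas the Spi1 and Ets1 stretches lie before internal starts under a DHS. The Spi1 stretch thus held more cores than this mean, but at an unlike kind of start. Its promoter had no CpG-rich stretch, while the Ets1 stretch had a GC content of 75% and 12 CpG dinucleotides.

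Longer words were also searched. GAGGAAGT is the word bound by PU.1 and CCGGAAGT the word bound by most other Ets proteins. Both were searched on both strands, and both contain the GGAA core. The sites that follow are 4 matches near a start of a member, with 11 bases on either side and the word in capitals.
Spi1 promoter, chr2:90936235-90936264, plus strand: ggtttataaagGAGGAAGTctagatcgtaa
Spi1 upstream DHS, chr2:90921124-90921153, plus strand: tcaggtgtgggGAGGAAGTggagatttctg
Gabpa and Atp5j promoter, Ets word, chr16:84835092-84835121, minus strand: cggagccagggCCGGAAGTagaacggtggc
Gabpa and Atp5j promoter, PU.1 word, chr16:84835245-84835274, plus strand: ccaaacaggagGAGGAAGTggagggtaagt

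The PU.1 word of the Spi1 promoter ended on the annotated start itself, at position 90936253 of chromosome 2, in the DHS of score 137.94. The Ets word between Gabpa and Atp5j, a gene for a subunit of the mitochondrial ATP synthase, lay at −63 bp from the Gabpa start, and a PU.1 word followed 89 bp past a Gabpa start. In the 120 bases before the 5′ end of 22347 protein-coding genes, the PU.1 word was found in 1.30% and the Ets word in 2.69%. Of the matches shown, only the Ets word of Gabpa lay in that stretch, so these shares are no background for the others. A match describes the letters and does not show that a protein was bound.

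All 10 members had a DHS in the promoter, taken here as 5 kb before and 2 kb after an annotated transcription start site (TSS), and all 10 had one over a TSS. Among 22350 protein-coding genes on chromosomes 1 to 19 and X the shares were 57.0% and 46.6%. With 10 genes the exact 95% interval of the first share reached down to 69.2%, and it covers counting error only. With peaks at or above the median score alone, the members' count was still 10, against 50.3% of all protein-coding genes. Of the 16 other Ets family genes found in the annotation, 11 had a promoter DHS (68.8%, exact interval 41.3 to 89.0%) and 9 had one over a TSS.

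The highest promoter scores of the members were spread over a wide range. Elf1 had 364.1, Ets2 255.06, Etv6 249.78, Fli1 185.19, Ets1 170.63, Spib 149.01, Gabpa 138.44, Spi1 137.94, Elk3 77.4 and Erg 43.98. The median was 159.8, compared with 101.2 over all protein-coding genes with a promoter DHS, and 8 members lay above that value. Elk3 and Erg were below it. The promoter of Elf1, a factor of lymphocytes, scored higher than 99.6% of all DHS, whereas that of Erg scored higher than 61.0%.

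**Figure D1:**
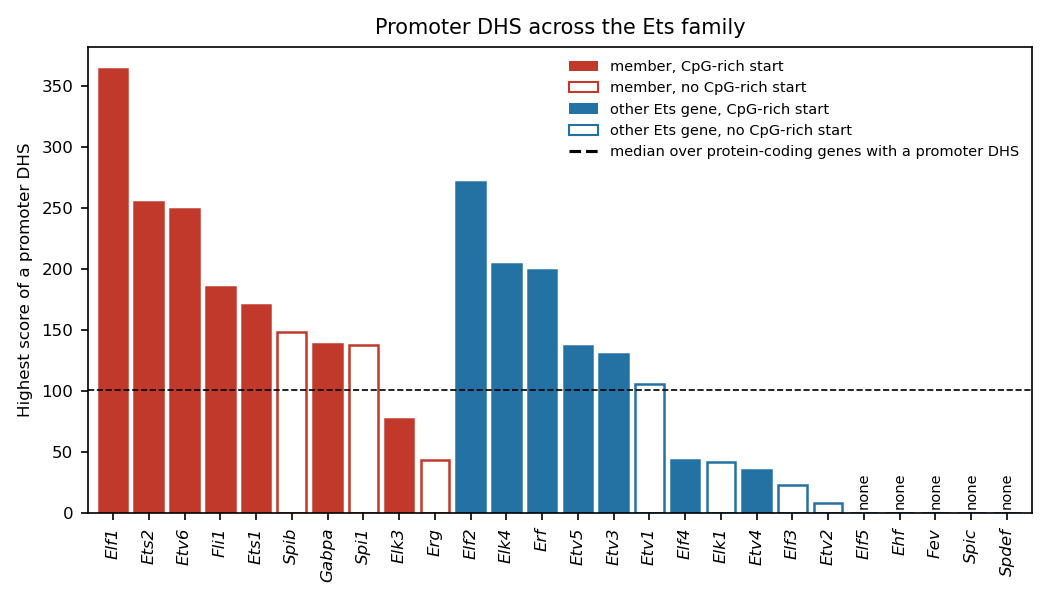
Highest score of a promoter DHS (y axis) for the 10 members in red and the 16 other Ets family genes in blue, with filled bars for genes with a CpG-rich start and open bars for genes without. Elf1 stands highest at 364.1, Erg lowest of the members at 43.98, and 5 other family genes have none, with a dashed line at the median over protein-coding genes with a promoter DHS and no error bars for 1 library.

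In the rest of the family, the top promoter scores were 271.39 for Elf2, 204 for Elk4, 199.71 for Erf, 137.16 for Etv5, 130.46 for Etv3 and 106.21 for Etv1. Elk4 belongs with Elk3 to the ternary complex factors, which work with serum response factor, and Erf is a repressor. Scores below 50 were seen for Elf4 (43.57), Elk1 (42.05), Etv4 (35.72), Elf3 (23.34) and Etv2 (8.47). The 5 genes without a promoter DHS were Elf5, Ehf and Spdef, which are known from epithelia, Fev, from serotonergic neurons, and Spic, from red pulp macrophages. Elf3 and Etv2 had no promoter DHS at or above the median score. The partners of Gabpa had scores of 166.86 (Gabpb1) and 241.18 (Gabpb2), both above the 138.44 of Gabpa.

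Of the members, 7 had a CpG-rich promoter, that is, at least 1 start lay in 1000 bp with at least 55% GC and CpG dinucleotides at 0.6 or more of the number its base composition predicts. These were Ets1, Ets2, Fli1, Elf1, Etv6, Gabpa and Elk3. The class held 8 of the 16 other Ets genes and 9816 of the 22350 protein-coding genes. Of all protein-coding genes, 85.1% of the CpG-rich and 35.1% of the others had a promoter DHS. The other 3 members, Spi1, Spib and Erg, fell in the second class, in which the median top score was 74.6. Spi1 and Spib were above that class median and Erg was below it. In the CpG-rich class the median top score was 113.8, and Elk3 lay below it and the other CpG-rich members above it.

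The 10 members had 37 annotated TSSs, of which 22 lay under a DHS and 15 did not. The share of 46.6% given above for all protein-coding genes is counted per gene. This count per TSS therefore has no background here. At Spi1 the DHS of 137.94 covered the starts at 90936253 and 90936937, whereas the starts at 90922547 and 90922565 had none over them. Ets1 had a DHS over both of its starts, with a score of 11.42 at the upstream one (chr9, 32443806) and 170.63 at the internal one (32503627). At Erg 1 start of 6 was covered, at 95680910 of chromosome 16 with 43.98, another at 95680955 lay just outside that DHS, and the outermost start at 95808200 was not covered. Elf1 had a second covered start, at 79915481 of chromosome 14, with a score of 121.59. For Ets2, Etv6 and Gabpa the covered starts were those at the 5′ end of the gene, and 2, 2 and 3 internal starts had no DHS. The outermost start of Elk3, at 92773880 of chromosome 10, was not covered, while the other 3 were.

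Some promoter DHS cannot be assigned to the member alone. The first Elf1 start lay 74 bp from the start of Wbp4, which runs the other way, and the first Gabpa start 80 bp from that of Atp5j. The Spib promoter DHS, 3932 bp wide, also covered a start of Pold1, the catalytic subunit of DNA polymerase delta, 1847 bp from that of Spib.

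Beyond the promoters, the windows of the members differed in how densely DHS lay in them. The number per 100 kb was 17.1 for Ets1 (38 DHS), 16.03 for Spib (17), 12.3 for Fli1 (27), 8.55 for Elk3 (14), 8.45 for Elf1 (17), 8.25 for Spi1 (11), 7.56 for Ets2 (9), 5.80 for Erg (19), 2.33 for Gabpa (3) and 2.09 for Etv6 (7). The median of the members was 8.35, compared with 3.39 for all protein-coding genes (quartiles 0.663 and 6.92) and 3.87 for the other Ets genes. Among peaks at or above the median score these medians were 2.90, 1.78 and 2.34, and 6 members were then above that of all protein-coding genes, compared with 8 of the 10 with all peaks. Of the members, 7 were above the upper quartile, while Gabpa and Etv6 were below the median. Ets1 exceeded 98.7% of all protein-coding genes and Spib 98.1%. The order of these 2 turned with the setting, since Spib had 13.2 and Ets1 7.67 per 100 kb among peaks at or above the median score, and 23.0 and 20.5 with 10 kb on either side of the gene. The member genes were long, with a median of 82502 bp against 15428 bp, and neighbouring genes fill some windows, so that the density is a property of the region.

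**Figure D2:**
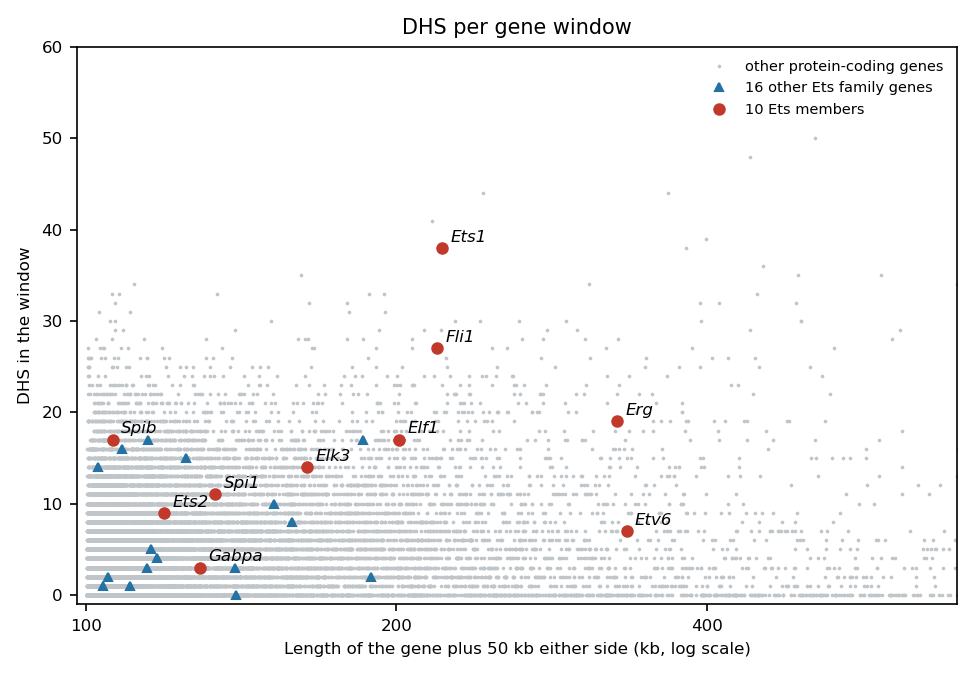
Number of DHS (y axis) against window length in kb on a log scale (x axis) for protein-coding genes in grey, 16 other Ets family genes as blue triangles and the 10 members in red. Ets1 with 38 and Fli1 with 27 lie high for their length, while Etv6 with 7 and Gabpa with 3 lie low (the axes end at 60 DHS and 700 kb, which leaves out 134 genes).

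Of the 160 DHS, 117 were distal, meaning outside the promoters of all annotated genes (73.1%, Wilson interval 65.8 to 79.4%, counting error only), compared with 52.5% of all DHS. A share of 47.5% lay in introns (76 DHS), against 21.7% of all DHS, 23.1% were intergenic (37), against 25.7%, and 2.5% in exons (4), against 5.15%. The promoters of the members held 23 and those of other genes 20. The distal DHS of the members were of ordinary strength, with a median score of 22.4 against 24.3 over all distal DHS, and 42.5% of the 160 reached the median score of the list. A long gene has more intron for a DHS to fall in, and the part of gene length in this share was not tested.

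**Figure D3:**
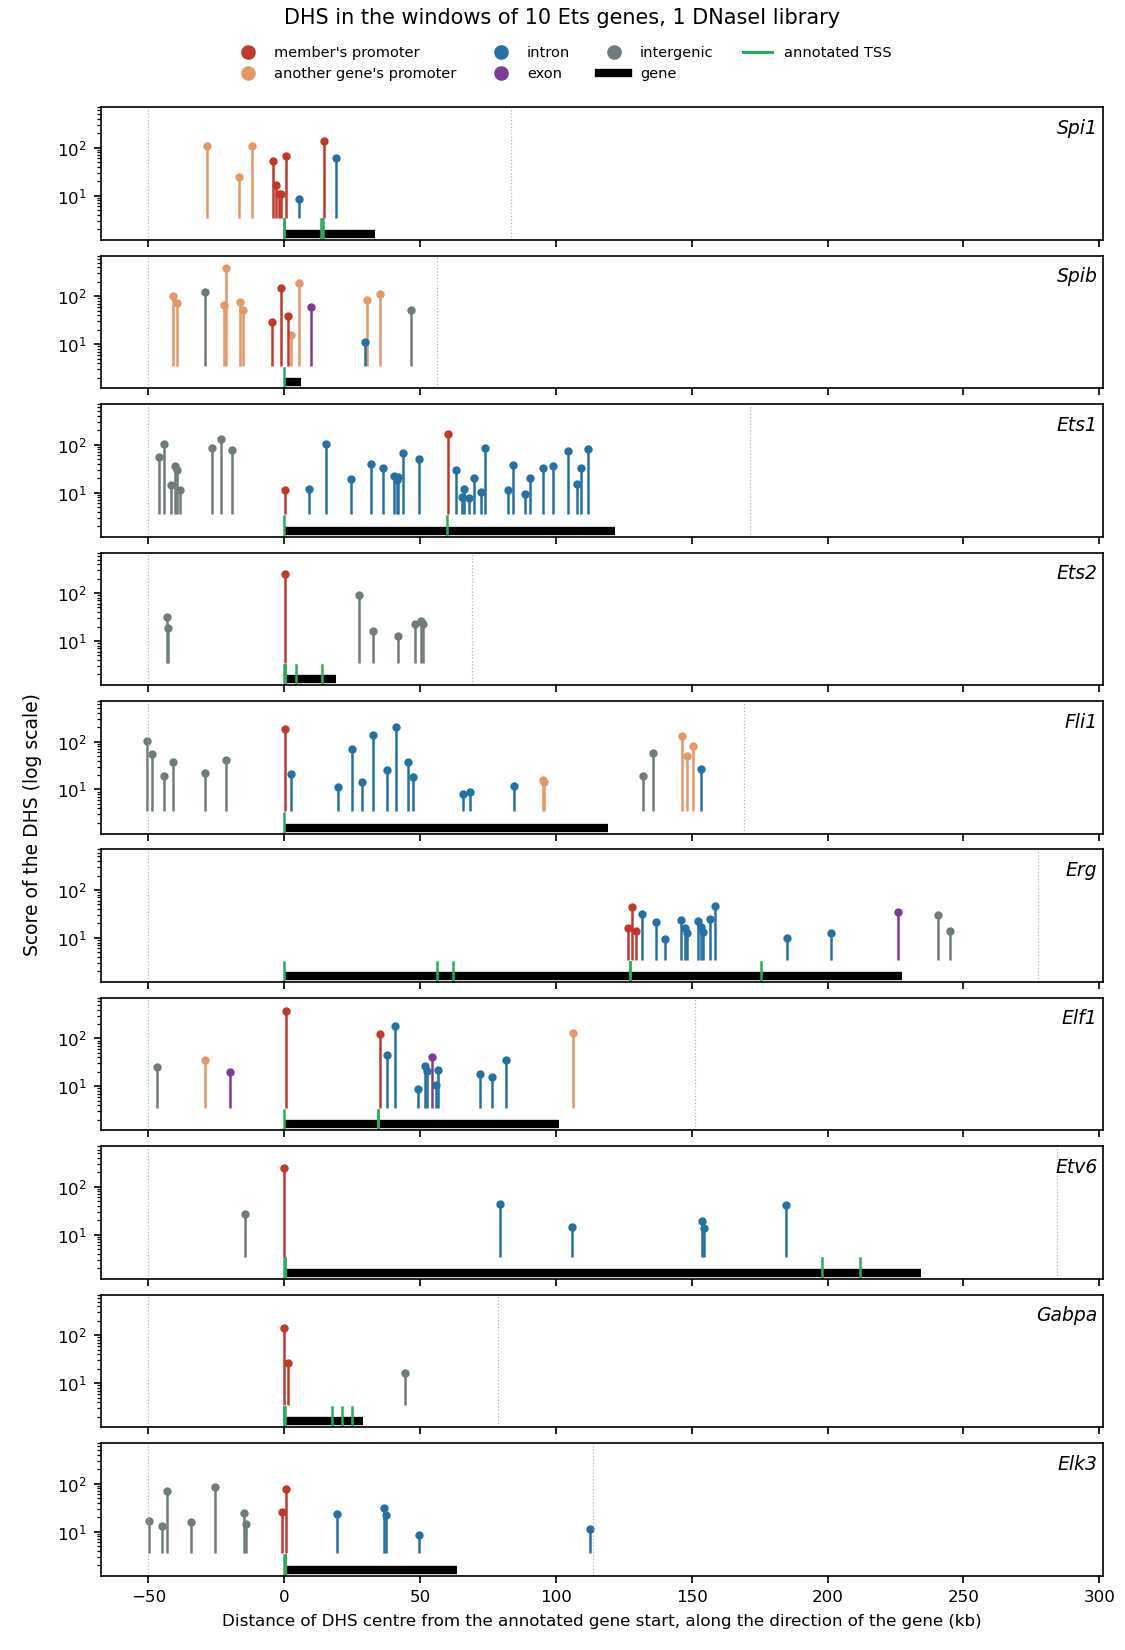
Every DHS of the 10 windows by the distance of its centre from the annotated gene start in kb (x axis) and its score on a log scale (y axis), coloured by position, with genes as black bars, annotated starts as green ticks and window ends as dotted lines. Ets1 and Fli1 show DHS along most of the gene, Erg none in its first 126.3 kb, and Gabpa and Ets2 little within the gene beyond the promoter.

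Spi1 had 11 DHS, 10 of them in a run of 36804 bp with gaps under 10 kb. An upstream regulatory element of this gene is well known as background. Counted from the covered start at 90936253, DHS centres upstream lay at 17.8 kb (score 53.93), 16.9 kb (16.3), 15.5 kb (10.93), 15 kb (11.07), 13.0 kb (67.09) and 8.4 kb (8.4). The first 5 of these count as promoter DHS only because the annotation has starts at 90922547 and 90922565, and none of them covers those starts. The PU.1 word of the DHS at 15 kb is the second sequence of the set of 4 shown above. Inside the gene, 5.4 kb downstream of the covered start, an intronic DHS scored 60.17. The 3 DHS further upstream, of 109.36, 24.14 and 110.86, were at the promoters of Psmc3, a proteasome subunit gene, and of Slc39a13, a zinc transporter gene.

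Spib had 17 DHS, but 10 of them lay at the promoters of other genes only. The strongest, of 393.71, was at the shared promoter region of Nr1h2, which codes for the oxysterol receptor LXR-beta, and Pold1, and another of 191.94 lay at a promoter of Mybpc2 and over the 3′ part of Spib. The promoters of Napsa, Fam71e1 and 2310044H10Rik also held DHS. The 4 distal DHS of this window scored 11 to 120.28, and none of them had Spib as the nearest gene by TSS.

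Ets1 had the largest number of distal DHS of the 10 members, 36 of 38, and for all 36 Ets1 was the gene with the nearest TSS. Of these, 9 were upstream of the gene (scores 11.08 to 129.12, median 55.03), 10 in introns between its starts (12.14 to 100.96, median 27.1) and 17 in introns past the second start (7.61 to 84.03, median 20.2). The strongest distal DHS, of 129.12, was 23.3 kb upstream of the gene. The longest stretch of the gene without a DHS was its last 9.0 kb. Nothing was listed in the 50 kb after the gene. Among 38 DHS the Ets word was found once, in an intron, and is shown as the site where an Ets gene carries the word of its own family outside a promoter.
Ets1 intron, DHS of score 81.44, chr9:32555389-32555418, minus strand: aacactggagtCCGGAAGTgacccgtctgc

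Fli1 had 21 distal DHS. The strongest, in an intron 41.1 kb from the start, scored 202.87 and so was higher than the promoter (185.19). Another, 32.5 kb in, scored 135.59 and was 4718 bp wide. Further intronic DHS scored 71.37 at 24.8 kb and 37.7 at 45.5 kb, and 8 DHS formed one run in this part of the gene. Upstream lay 6 DHS, of which the 2 farthest (55.03 and 101.97) were also in the Ets1 window. Downstream, Kcnj1, a potassium channel gene, had promoter DHS of 129.81, 80.63 and 49.37.

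Fli1 also stood out among the members in its PU.1 words. Over the whole DHS, 11 of the 23 matches in the 10 windows were in the Fli1 window, in 8 of its 27 DHS. This was 3.26 per 10 kb of DHS (exact Poisson interval 1.63 to 5.83), compared with 1.06 over all DHS of the list. Over all members, with the 11 matches of Fli1 among the 23, it was 1.31 (0.833 to 1.97). Spib, Ets1 and Elf1 had 0.836, 0.459 and 0.544, below the list, and Spi1, Erg and Elk3 had 1.83, 1.13 and 1.56, above it. Gabpa had 3.37 from a single match, and Ets2 and Etv6 had none. Fli1 was picked out after its count had been seen, so the interval describes counting error and is no test. Matches in the strongest distal DHS of Fli1 and in 1 DHS upstream are shown, with the word in capitals.
Fli1 intron, DHS of score 202.87, chr9:32307839-32307868, plus strand: gtgtcactgaaGAGGAAGTtagctacccag
Fli1 intron, DHS of score 135.59, first match, chr9:32315192-32315221, plus strand: gtatttctgtgGAGGAAGTgtgttggtaaa
Fli1 intron, DHS of score 135.59, second match, chr9:32315367-32315396, plus strand: aactggacagaGAGGAAGTggctcctgggt
Fli1 intron, DHS of score 135.59, last match, chr9:32316498-32316527, minus strand: aagctccaaggGAGGAAGTaagttttcagt
Fli1 upstream, DHS of score 40.96, chr9:32370225-32370254, minus strand: taacacatttcGAGGAAGTtggctggccct

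The DHS of score 135.59 thus carried 3 matches. In the DHS of score 202.87 the match lay at −48 bp from the centre, counted along the chromosome.

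Fli1 and Ets1 lie next to each other on chromosome 9, and Erg and Ets2 on chromosome 16, each pair beside a potassium channel gene, Kcnj1 or Kcnj15. Fli1 and Erg are close relatives, as are Ets1 and Ets2, and the pairs are known to descend from 1 duplicated region. From the 3′ end of Fli1 to the 3′ end of Ets1, 335613 bp held 57 DHS, or 17.0 per 100 kb, with a median score of 25.4, and 24 reached the median score of the list. From Erg to Ets2, 361883 bp held 20 DHS, or 5.53 per 100 kb, with a median of 19.8, and 4 reached it. Fli1 held 15 DHS (counted by their centres) and Erg 17, but Erg is longer, at 227425 bp against 119182 bp. The space between the genes had 13 DHS in the first pair and 2 in the second. Ets1 held 29 and Ets2, a gene of 18977 bp, held 1. In the 50 kb past the pair the order turned, with 0 DHS after Ets1 and 6 after Ets2.

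**Figure D4:**
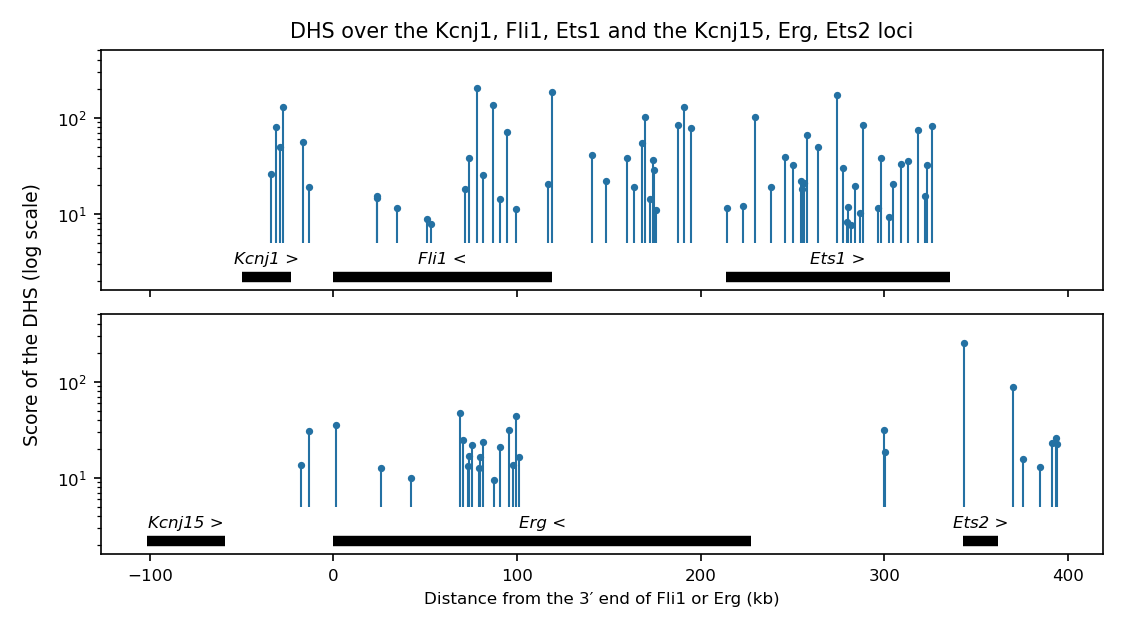
DHS over the Fli1 and Ets1 region (top) and the Erg and Ets2 region (bottom), by distance from the 3′ end of Fli1 or Erg in kb (x axis) and score on a log scale (y axis); black bars are genes and the angle brackets give their direction. DHS run through Fli1 and Ets1 with scores up to 202.87, whereas those of Erg reach 46.98 and the highest of the lower panel is the Ets2 promoter at 255.06.

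Erg had 19 DHS, of which 16 were distal, and the scores ran from 9.51 to 46.98, with 3 of the 19 at or above the median score of the list. They lay in the 3′ part of the gene or, for 2 of them, beyond its 3′ end. The 126.3 kb from the outermost start to the first DHS near the covered start (55.5% of the gene) held none. A run of 14 DHS extended over 33180 bp around that start and into the gene. The strongest intronic DHS (46.98) scored higher than the promoter (43.98). As Erg and Fli1 also mark endothelial cells and megakaryocytes, marker genes of those cells were looked at in the same list. Of 6 endothelial genes, Cdh5, Kdr and Vwf had a promoter DHS (8.92 to 131.79), 2 of them over a TSS, and Tek, Tie1 and Emcn had none. Of 7 erythroid and megakaryocyte genes, 3 had one (22.73 to 177.81) and 1 had one over a TSS, while Epor, Pf4, Gp9 and Gp1ba had none. Both counts stand beside a background of 57.0% of protein-coding genes with a promoter DHS and 46.6% with one over a TSS. The part of such cells in the DHS of Erg was not tested.

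Ets2 had a promoter DHS of 255.06 and then 17.6 kb of gene without any. Its other 8 DHS were intergenic, 2 upstream and 6 downstream, and the strongest scored 89 at 27.3 kb from the start. Elf1 had 13 distal DHS, of which an intronic one 40.9 kb from the first start scored 184.73. This was higher than the second promoter (121.59). The others scored 8.8 to 44.83. At Elf1, 2 of the 17 DHS lay at promoters of other genes only, Gm5465 (36.18) and Sugt1 (129.36).

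Etv6 had 6 distal DHS over a gene of 234459 bp, with scores from 14.06 to 43.66, and the first 78.1 kb after the promoter DHS had none. Gabpa had 3 DHS in all. Beside the promoter these were a DHS of 26.02 within 2 kb of the start and 1 of 16.52 at 44.4 kb, beyond the gene. Etv6 and Gabpa thus combined few distal DHS with promoter scores above 98.2% and 91.6% of the list.

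Elk3 had 12 distal DHS, 7 of them intergenic and upstream. The strongest scored 84.01 at 25.3 kb upstream, above the promoter (77.4), and another scored 71.77 at 43.1 kb upstream. The intronic DHS of the window scored 8.68 to 31.04, and 1 of these lay in a neighbouring gene. The upstream DHS of 84.01 carried a PU.1 word, which is shown because it lies in the strongest DHS of the window.
Elk3 upstream, DHS of score 84.01, chr10:92799031-92799060, minus strand: cctgcaggaagGAGGAAGTggggccctgcc

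The words were then compared between the 160 DHS and all 47474 DHS on chromosomes 1 to 19 and X, in the central 300 bp of each. The PU.1 word was found in 5 of 160 (3.13%, Wilson interval 1.34 to 7.11%), compared with 3.61% of all DHS. The Ets word was found in 2 of 160 (1.25%, 0.343 to 4.44%), compared with 1.68%. The GGAA core occurred 3.52 ± 1.83 times (SD over 117 distal DHS) per 300 bp, compared with 3.47 ± 1.97 over all distal DHS. None of these shares was set apart from that of the list beyond counting error. Over the whole DHS the PU.1 word was in 20 of 160 (12.5%, 8.24 to 18.5%) against 8.90%, and the DHS of the members were wider (median of the distal ones 705 bp against 602 bp). By position, the whole DHS held it in 8 of 43 promoter DHS (18.6%, 9.74 to 32.6%) against 8.87% of all promoter DHS, which lies outside that interval, and in 12 of 117 distal DHS (10.3%, 5.97 to 17.1%) against 8.92%. Of the 43, 20 lay at promoters of other genes only, and the 8 include DHS at promoters of Mybpc2, Napsa, Kcnj1 and U6, which are not members. The 23 DHS at the members' own promoters had a median width of 1412 bp, against 941 bp for all promoter DHS. The part of width in the share of 18.6% was not tested.

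**Figure D5:**
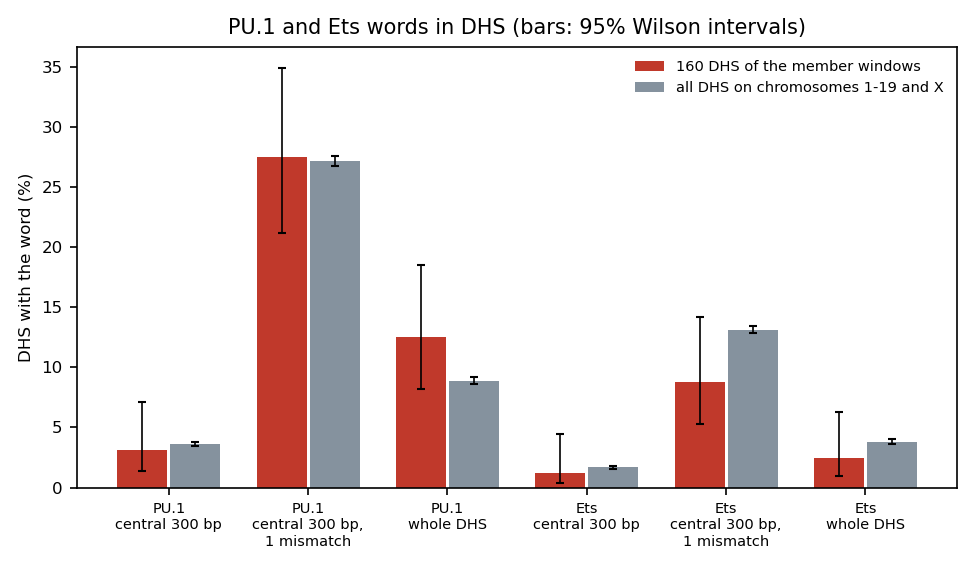
Share of DHS with a PU.1 or Ets word (y axis, percent) in the 160 DHS of the member windows (red) and in all DHS on chromosomes 1 to 19 and X (grey), for 3 ways of searching (x axis); the lines are Wilson intervals. The intervals of the members enclose the share of all DHS in each of the 6 pairs, as for the PU.1 word in the central 300 bp, 3.13% against 3.61%.

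The B cell label was checked on marker genes in the same list. The B cell genes Cd79a, Cd79b, Ms4a1, Pax5, Cd22, Blk and Cr2 each had a DHS over a TSS, with top promoter scores of 84.0 to 265. Of 8 T cell genes only Cd5, which a subset of B cells also expresses, had a promoter DHS, and it did not cover a TSS. Of 8 myeloid genes 5 had a promoter DHS, Cd68 (142.32), Cd14 (51.05), Elane (42.54), Emr1 (41.05) and Itgam (18.16), with that of Cd14 over a TSS, and Csf1r, Lyz2 and Mpo had none. The shares over all protein-coding genes, 57.0% in the promoter and 46.6% over a TSS, are the background of these counts. Since Spi1 is also used in myeloid cells, their part in the DHS of Spi1 was not tested.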

How the data were processed

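Splenic B cells were profiled by DNase I digestion and sequencing, with 1 DNaseI library and 1 input library. Per the methods of the study, apoptotic cells were removed on Ficoll, nuclei were digested with DNase I at a concentration chosen by qPCR, and DNA fragments under 500 bp were sequenced. The submitters' processing notes name BWA 0.6.2, SAMtools and the build mm9. The score of each peak is the authors' deposited value from MACS. Its scale, the settings of the caller and the use made of the input are not given for this library in the sources used here. The study gives caller settings for its ChIP-seq data, and whether they also apply to this list is unknown. The list holds no read counts, so depth is unknown, and a missing DHS means only that none was called.

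Peaks were overlapped by at least 1 bp with the windows and with promoters (5 kb before to 2 kb after a TSS) of GENCODE M1, with Python 3.11.15 and pysam 0.24.0. Promoter peaks took precedence over exon, intron and intergenic ones. A run was a set of peaks with gaps under 10 kb. Of 17 other Ets genes listed, 16 were found under their names. Of the peaks, 1 passed the end of chromosome 19 by 52 bp. Percentages of genes with lower values were taken over protein-coding genes on chromosomes 1 to 19 and X. Words were read from NCBI build 37. The scripts for overlaps and words were tested on simulated data. All 10 members, the rest of the family with a promoter DHS, and the genes whose promoters hold DHS of a window were to be named. The rule uses no measured value, but the members, the lists and the alternatives were proposed with earlier results of these data known. Intervals are at the 95% level and cover counting error only. No p-value is given. A marker gene and a promoter sequence are not reported here.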

Additional observations from a re-analysis of the deposited data

How the results depend on the processing

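The 9 results were recomputed under alternative settings, which gave 43 values, and 32 of these stayed within 1.5 times of the reported count or within the interval of the reported value. With the weaker peaks, those under the median score, left out, the windows held 68 DHS. The median density was then 2.90 per 100 kb (1.78 for all protein-coding genes). Of the 68, 55.9% were distal and 23.5% lay at promoters of other genes only. Across the list, distal DHS scored lower than promoter DHS (medians 24.3 and 53.3). The 55.9% is therefore not to be set beside the 52.5% of all DHS. With 10 kb on either side of the genes the total was 105 and the share at other genes' promoters 4.76%, and with 100 kb that share was 20.2%. A search of the whole DHS raised the PU.1 share to 12.5%, and a search with at most 1 mismatch raised it to 27.5% and the Ets share to 8.75%, where all DHS had 8.90% for the first and 27.2% and 13.1% for the other searches. Among distal DHS alone the Ets share was 0%, that is 0 of 117 (Wilson interval up to 3.18%), compared with 0.605% of all distal DHS. These settings remove weak peaks, change the length of the windows, change which bases or DHS are searched, or loosen the match. All 10 members kept a promoter DHS under each of the 4 alternatives tried for that count. Of 50 alternative densities of single members, 37 stayed within 1.5 times of the reported one and 13 moved by more. These were all members but Spib with weak peaks left out, Spi1 and Gabpa with 10 kb windows, and Spib with merged peaks and with 100 kb windows. No paired analysis was possible because the series has 1 DNaseI library and 1 input library without replicate numbers. What depth limits could not be assessed, since the list holds no read counts.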

Other observations

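Words of other factors that act with Ets proteins in B cells were searched in the central 300 bp of the 160 DHS, on both strands and without mismatch, and this choice was made once the data were known. The composite Ets and Irf word, which PU.1 or Spi-B can bind together with Irf4 or Irf8, was in 2 of 160 (1.25%, Wilson interval 0.343 to 4.44%), compared with 3.58% of all DHS, and both matches were at promoters. Among distal DHS alone it was in 0 of 117 (Wilson interval up to 3.18%), compared with 4.14% of all distal DHS, which lies outside that interval. The word was picked out after its counts had been seen, so this is no test. The octamer ATGCAAAT, bound by Oct proteins, was in 4 (2.5%, 0.976 to 6.25%) against 1.63%. The Runx word TGTGGTT was in 7 (4.38%, 2.14 to 8.75%) against 6.80%, and a palindromic Ebf word was in 1 (0.625%, 0.110 to 3.45%) against 1.22%. Over all 160 DHS the interval of each of the 4 words enclosed the share over all DHS. The composite word contains the GGAA core, and the other 3 do not.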
